A study of Homo sapiens with 18 samples.

Results

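Integrins are the receptors by which cells hold on to the extracellular matrix, and laminins are the major adhesive proteins of the basement membrane. The transcripts of both families were followed in 2 human bladder cancer cell lines, UM-UC-3 and T24, in which ACAT1 had been knocked down with siRNA. ACAT1 encodes a mitochondrial acetoacetyl-CoA thiolase that acts in ketone body and isoleucine metabolism. Every gene of the count table whose symbol has the form of an integrin α chain, an integrin β chain or a laminin chain was taken, which gave 38 of 39496 genes. They comprised 18 integrin α genes, 8 integrin β genes, 5 laminin α genes, 4 laminin β genes and 3 laminin γ genes.

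The cells received a control siRNA (siNC), which the labels give as WT, or siACAT1-1 or siACAT1-2, given as ACAT1 knockdown. The 6 groups of line and siRNA held 3 libraries apiece, called biological replicates in the titles. How the replicates of the sequencing were grown is not given in the sources used here, and p-values measure the spread between these libraries. UM-UC-3 and T24 are established lines from transitional cell carcinoma of the urinary bladder, and they were grown in different media (MEM and RPMI-1640), so cell line and medium cannot be told apart. The knockdown was transient and the cultures lack the stromal, immune and endothelial cells of a bladder tumor. Depth ran from 25163490 to 34417230 counted reads a library (median 28613163).

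An integrin is a dimer of 1 α and 1 β chain. The β1 chain pairs with many α chains, and the α chain largely sets the ligand: α1, α2, α10 and α11 bind collagen, α3, α6 and α7 bind laminin, and α5 and αV bind proteins with an RGD motif such as fibronectin and vitronectin. The α6β4 dimer anchors epithelial cells to laminin-332 in hemidesmosomes, and the β2 and β7 chains are mostly those of leukocytes. A laminin is a trimer of 1 α, 1 β and 1 γ chain, and laminin-511, for example, is made of α5, β1 and γ1. In normal urothelium laminins are part of the basement membrane on which the basal cells sit.

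The labelled cell type was checked against its markers. Of 18 urothelial and epithelial genes, 15 were under 1 RPKM (reads scaled to exon length and to the library total) in every UM-UC-3 library and 11 in every T24 library, including the uroplakins UPK1A, UPK1B, UPK2, UPK3A and UPK3B, the luminal factor GATA3, the basal factor TP63 and the epithelial cadherin CDH1. KRT7, KRT8 and KRT18 reached 1 RPKM in at least 1 library of each line, and KRT19, PPARG, FOXA1 and EPCAM did so in T24 cells only. All 18 genes together summed to 166 to 211 RPKM in the UM-UC-3 siNC libraries, 131 to 144 after siACAT1-1 and 136 to 155 after siACAT1-2. The T24 sums were 430 to 973 with siNC and, in the same order, 302 to 769 and 397 to 1101 RPKM. The part of these differences in the results on integrins and laminins was not tested. Of the leukocyte markers, 6 of 6 were under 1 RPKM in all libraries, with summed levels of 0.0084 to 0.236 RPKM, and so were 4 of 4 endothelial markers, 4 of 5 fibroblast markers and both platelet markers that could be matched of 4 listed. The summed levels of these 3 lists were 0.0220 to 0.113, 1.55 to 2.49 and 0.285 to 0.842 RPKM. Since the libraries are bulk RNA, fewer cells of a kind and less RNA per cell cannot be told apart.

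The targeted gene was low in all 12 knockdown libraries. In UM-UC-3 cells ACAT1 stood at 46.0 ± 1.68 RPKM with siNC (SD, n = 3 here and in all groups), 3.05 ± 0.703 with siACAT1-1 and 2.16 ± 0.544 with siACAT1-2. The T24 means were 16.2 ± 1.40, 1.29 ± 0.149 and 0.792 ± 0.122 RPKM. The log2 fold changes of the 4 comparisons lay between -4.45 and -3.64. Within each line the siRNA comparisons share the same siNC libraries.

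Most of the 38 genes were under 1 RPKM in every library. There were 13 members at or over 1 RPKM in all 18 libraries: the integrin α genes ITGA2, ITGA3, ITGA5, ITGA6, ITGAE and ITGAV, the β genes ITGB1 and ITGB5, and the laminin genes LAMA5, LAMB1, LAMB2, LAMB3 and LAMC1. A further 22 members stayed under 1 RPKM in all 18 libraries, among them the hemidesmosomal ITGB4, the laminin α3 gene LAMA3, the leukocyte genes ITGAL, ITGAM, ITGAX, ITGAD, ITGB2 and ITGB7, and the platelet gene ITGA2B. The filter on low counts kept 31 members of 38 for testing. The 7 that it removed were ITGA8, ITGAL, ITGAD, ITGA2B, ITGB6, LAMB4 and LAMC3. Among the 31, ITGA4 passed in UM-UC-3 cells but not in T24 cells on their own, and ITGA9, ITGB4, ITGB7, ITGB8 and LAMA3 passed in T24 cells but not in UM-UC-3 cells.

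**Figure D1:**
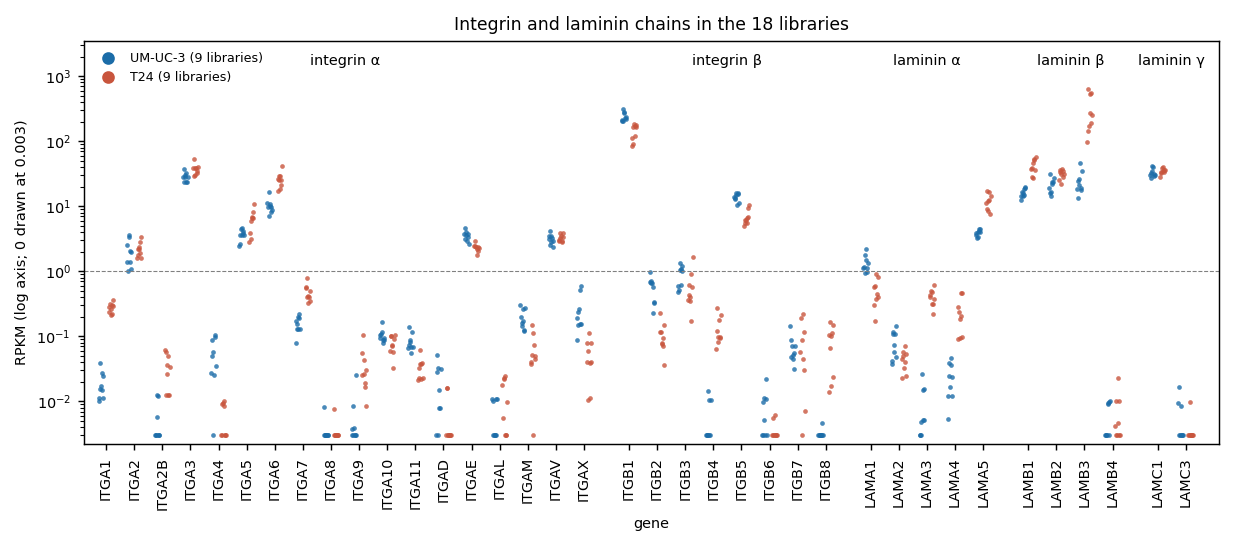
RPKM of integrin and laminin genes (log axis, a value of 0 drawn at 0.003) in the 9 UM-UC-3 libraries (blue) and the 9 T24 libraries (red), by chain class. ITGB1 was the highest integrin gene and LAMB3 in T24 cells the highest laminin gene; 22 genes lie under the dashed line at 1 RPKM in every library.

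The integrin repertoire was led by 1 β chain and by the laminin-binding α chains. ITGB1 made up 93.2% ± 0.294 of the summed RPKM of the β genes in UM-UC-3 siNC libraries and 93.4% ± 1.09 in T24 siNC libraries. ITGA3 made up 57.6% ± 9.83 and 53.1% ± 4.09 of the summed α genes. ITGA6 came next in both lines, with 18.3% ± 4.61 in the first line and 30.4% ± 3.15 in the second. These shares describe RNA levels per length and not dimers on the cell surface.

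The question of the siRNA comparisons was which of these genes moved with ACAT1. ITGB1, the common β chain, and ITGA5, the α chain of the fibronectin receptor, both rose. They were the only members called in the edgeR fit of all 18 libraries with the low-count filter and without the replicate block. In T24 cells siACAT1-2 raised ITGA5 by 1.43 ± 0.20 on the log2 scale (SE) and ITGB1 by 0.71 ± 0.13, and siACAT1-1 raised ITGB1 by 0.89 ± 0.13. Over the mean of the 4 comparisons ITGB1 rose by 0.55 ± 0.08 and ITGA5 by 0.84 ± 0.13. No integrin or laminin gene was called lower in the fit without the block.

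These calls were made at an adjusted p (Benjamini-Hochberg, edgeR's quasi-likelihood test) under 0.05 over the 20144 genes tested. Without the block, 0 of 31 members were called for UM-UC-3 siACAT1-1 (8 at an unadjusted p under 0.05), where 0.00993% of all genes were called, and 0 for UM-UC-3 siACAT1-2 (2 at an unadjusted p), where 0.0546% were. Shares of all genes are given at the adjusted threshold only. Counts at an unadjusted p, here and below, therefore cannot be judged against them. In T24 cells 1 member was called for siACAT1-1 and 2 for siACAT1-2, beside 0.124% and 0.268% of all genes. For the mean of the 4 comparisons it was 2 members beside 0.223%. DESeq2 called 1, 0, 2, 2 and 3 members in these contrasts. The share of all genes that DESeq2 called is not given, here or below. The members' median log2 fold change was 0.25, 0.09, -0.09 and 0.06 in the 4 comparisons and 0.23 in their mean, where the median of all genes tested was -0.01, 0.00, 0.00, 0.01 and 0.00. With genes whose groups held 3 counts or fewer set at the bound that 3 counts allow, the 4 medians were 0.23, 0.07, -0.09 and 0.12.

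Libraries with the same replicate number within a line deviated together, and a fit with the number as a block called more genes. It called 6 members for UM-UC-3 siACAT1-1, all higher, where 3.06% of all genes were called. It called 0 members for UM-UC-3 siACAT1-2 (6 at an unadjusted p under 0.05), beside 1.36%. In T24 cells it called 3 for siACAT1-1 and 7 for siACAT1-2, all higher, beside 13.9% and 8.48% of all genes. For the mean of the 4 comparisons it called 9 members higher and 2 lower, beside 12.4%. The number 3 libraries of UM-UC-3 cells and the number 2 libraries of T24 cells stood apart from the others of their line. Without both sets the blocked fit called 1, 0, 6 and 9 members in the 4 comparisons and 8 in the mean. The share of all genes called in that fit is not given here, so these counts cannot be judged as a result about the members. What a replicate number stands for beyond a biological replicate is not given in the sources used here.

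**Figure D2:**
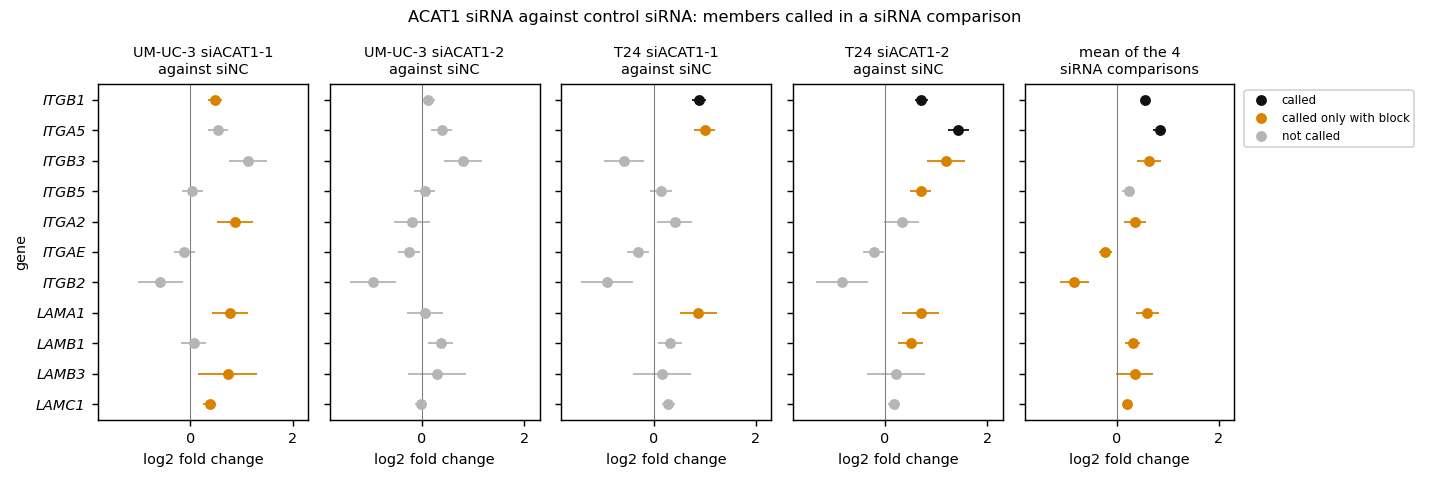
Log2 fold change against siNC with its standard error, without the replicate block, for members called in at least 1 siRNA contrast with or without the block; black points were called without the block, orange points only with it, grey points in neither. ITGB1 and ITGA5 are right of 0 in all panels, while ITGB2 and ITGAE are left of it.

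ITGB1 (GRCh38 chr10:32900319-33005792, minus strand, 30 merged exon blocks) was the most abundant member of the integrin family. In UM-UC-3 cells it stood at 203, 209.6 and 201 RPKM with siNC, 311, 268 and 281 with siACAT1-1, and 230.1, 221 and 238 with siACAT1-2. The T24 libraries gave 83.3, 111 and 89.8 RPKM with siNC, 164, 186 and 170.4 with siACAT1-1, and 121, 174 and 164 with siACAT1-2. No knockdown library overlapped the siNC libraries of its line. The rise passed the test in T24 cells for both siRNAs (edgeR adjusted p = 0.0173 and 0.0288) and over the mean of the 4 comparisons (adjusted p = 0.00753). In UM-UC-3 cells the log2 difference was 0.48 ± 0.13 for siACAT1-1, which was called only with the block (edgeR adjusted p = 0.0107, 0.853 without it), and 0.13 ± 0.13 for siACAT1-2, which was not called in either fit. Within a replicate number ITGB1 was higher than in siNC in 12 of 12 pairs of libraries, by 0.08 to 0.98 on the log2 scale. Here and below each siNC library serves in the pairs of both siRNAs, so the 12 pairs are not 12 separate observations.

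Some calls of ITGB1 were lost without single libraries, while its fold change kept its sign. For siACAT1-1 in T24 cells, leaving out the T24 siNC library 1 or 3 or the siACAT1-1 library 1 gave an edgeR adjusted p of 0.112, 0.146 and 0.0756, and the log2 fold change of ITGB1 lay between 0.82 and 0.96 over all 18 such fits. For siACAT1-2 in T24 cells the call was lost without any 1 of 9 libraries (T24 siNC 1 and 3, T24 siACAT1-1 1, T24 siACAT1-2 2 and 3, UM-UC-3 siNC 1, UM-UC-3 siACAT1-1 2, UM-UC-3 siACAT1-2 1 and 2), with p up to 0.206 and a log2 fold change of ITGB1 between 0.63 and 0.71. The mean over the 4 comparisons was lost without the T24 siNC library 1, with adjusted p = 0.0549 and 0.53. With the T24 libraries fitted alone, the ITGB1 values were 0.89 (adjusted p = 0.328) and 0.69 (adjusted p = 0.324).

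ITGA5 (chr12:54395261-54419460, minus strand) was expressed at a lower level and had the larger fold change. In UM-UC-3 cells it stood at 2.47, 3.61 and 2.65 RPKM with siNC, 4.50, 4.56 and 3.63 with siACAT1-1, and 4.21, 3.88 and 3.63 with siACAT1-2. T24 values were 2.80, 3.82 and 3.16 RPKM with siNC, 5.84, 6.60 and 6.88 with siACAT1-1, and 8.26, 6.65 and 10.9 with siACAT1-2. In both lines every knockdown library lay above the siNC libraries of its line. For ITGA5 the edgeR adjusted p was 0.00396 with siACAT1-2 in T24 cells, 0.00898 over the mean of the 4 comparisons, and 0.0584 with siACAT1-1 in T24 cells, where the log2 fold change was 1.00 ± 0.20 and the block gave adjusted p = 0.000405. In UM-UC-3 cells the log2 values were 0.54 ± 0.20 and 0.38 ± 0.20 and passed the test in neither fit (adjusted p = 0.0598 and 0.247 with the block). The ITGA5 effect in UM-UC-3 minus that in T24 was -0.75 ± 0.24 on the log2 scale and was not called (adjusted p = 1.00, 0.169 with the block). Within a replicate number ITGA5 was higher in 12 of 12 pairs, by 0.11 to 1.79. The siACAT1-2 call in T24 cells held without each of the 18 libraries in turn, and it was lost with the T24 libraries fitted alone (1.41, adjusted p = 0.122). The mean was lost without the UM-UC-3 siNC library 1 (0.79, adjusted p = 0.0654) or the T24 siNC library 1 (0.81, adjusted p = 0.0634), and the siACAT1-1 call in T24 cells appeared without the number 2 library of T24 siNC (adjusted p = 0.0457), T24 siACAT1-1 (adjusted p = 0.0287) or T24 siACAT1-2 (adjusted p = 0.0332).

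**Figure D3:**
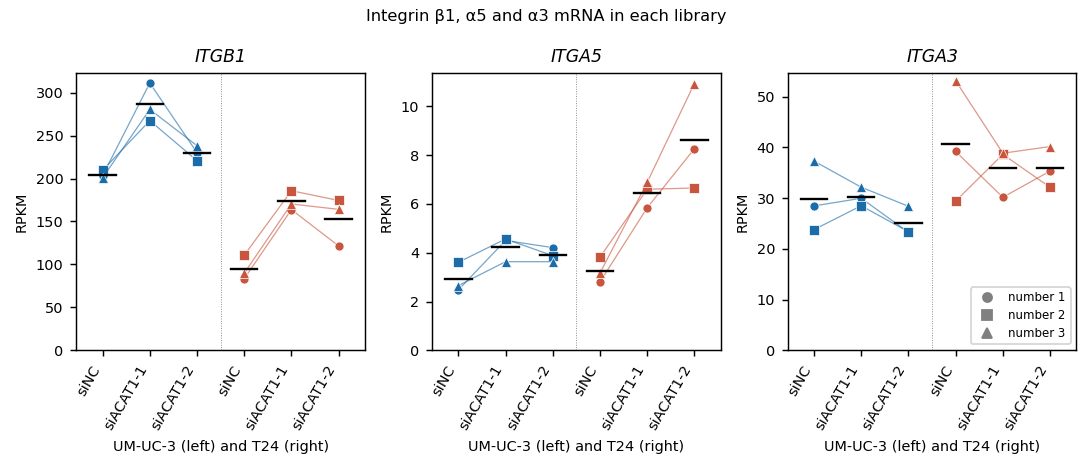
RPKM of ITGB1, ITGA5 and ITGA3 (linear axes from 0) in each library of UM-UC-3 (blue, left) and T24 (red, right); lines join libraries with the same replicate number and black bars are means of 3. ITGB1 and ITGA5 lie above siNC in every knockdown library, while ITGA3 does not.

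ITGA3, ITGA6 and ITGAV were not called in the siRNA comparisons with or without the block. Among the α chains given further below, ITGA2 and ITGAE were called with the block. ITGA3, the most abundant α gene, stood at 28.5, 23.8 and 37.3 RPKM in the UM-UC-3 siNC libraries and 39.2, 29.4 and 53.1 in those of T24, and its knockdown libraries ranged from 23.3 to 32.1 and from 30.2 to 40.1, within the siNC range in T24 cells. The log2 mean of ITGA3 over the 4 comparisons was -0.15 ± 0.12 (edgeR adjusted p = 0.721). ITGA6 had a mean of 0.21 ± 0.17 (adjusted p = 0.718) and ITGAV, the vitronectin receptor chain, one of 0.10 ± 0.12 (adjusted p = 0.835). The ratio of ITGA3 to ITGA5 RPKM was 12.8 ± 4.65 with siNC in T24 cells, 5.55 ± 0.352 with siACAT1-1 and 4.26 ± 0.579 with siACAT1-2. The UM-UC-3 ratios were 10.7 ± 3.80, 7.25 ± 1.40 and 6.45 ± 1.20. The share of ITGA5 in the summed α genes of T24 cells was 4.54% ± 1.69 with siNC and 8.39% ± 0.664 and 10.3% ± 0.510 with the ACAT1 siRNAs.

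The window before the RNA start of ITGB1 and of ITGA5 is shown because these are the members that rose together (RefSeq, GRCh38.p14, 250 bases before to 10 after the start, minus strand, chr10:32958221-32958480 and chr12:54419257-54419516). Capitals mark the letters TGANTCA, read by AP-1 factors, and GGAATG, read by TEAD factors, on either strand; the motifs do not overlap.
ITGB1: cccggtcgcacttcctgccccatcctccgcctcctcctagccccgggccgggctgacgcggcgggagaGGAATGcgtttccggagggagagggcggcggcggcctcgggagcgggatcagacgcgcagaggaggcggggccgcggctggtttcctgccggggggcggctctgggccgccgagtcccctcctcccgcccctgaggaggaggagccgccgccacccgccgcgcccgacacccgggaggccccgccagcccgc
ITGA5: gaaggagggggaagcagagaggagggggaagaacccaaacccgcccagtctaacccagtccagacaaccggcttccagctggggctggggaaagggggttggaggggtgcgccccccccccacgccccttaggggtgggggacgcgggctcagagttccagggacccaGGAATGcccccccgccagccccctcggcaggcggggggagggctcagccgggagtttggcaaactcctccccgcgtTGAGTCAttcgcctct
GGAATG occurred once in each window, at -182 in ITGB1 and -82 in ITGA5, and in 12.6% of all 34943 windows of this length. TGANTCA occurred in ITGA5 at -6, and in 6.93% of all windows. GGGCGG, read by SP1, was found 3 times in ITGB1 and once in ITGA5, and in 43.0% of all windows. CACGTG, the E-box read by MYC and related factors, was in neither and in 6.58% of all windows. RefSeq lists 2 windows for ITGB1, and the one shown lies 47562 bases from the 5′ end of the gene model used for counting, which for ITGA5 is 194 bases away. A match is a string of letters and not evidence of binding.

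The RGD receptor chains ITGB3 and ITGB5 were called only with the block. ITGB5, the vitronectin receptor β chain, stood at 5.06, 5.51 and 6.16 RPKM with siNC in T24 cells, 6.20, 5.47 and 6.65 with siACAT1-1, and 9.36, 6.73 and 10.5 with siACAT1-2. Only the siACAT1-2 libraries lay clear of siNC, and the log2 fold change of ITGB5 was 0.70 ± 0.21 (edgeR adjusted p = 0.265, 0.00205 with the block). In UM-UC-3 cells ITGB5 ranged from 12.8 to 14.0 with siNC and from 10.4 to 16.2 with the ACAT1 siRNAs, which overlapped.

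ITGB3, the β chain of the αVβ3 receptor, was low. In UM-UC-3 cells it stood at 0.476, 0.589 and 0.516 RPKM with siNC, 1.34, 1.05 and 1.07 with siACAT1-1, and 0.622, 1.21 and 1.01 with siACAT1-2. The T24 values were 0.357, 0.436 and 0.617 with siNC, 0.353, 0.407 and 0.172 with siACAT1-1, and 0.924, 0.574 and 1.66 with siACAT1-2. The UM-UC-3 knockdown libraries lay above siNC, while in T24 cells the libraries of both siRNAs overlapped siNC. ITGB3 was called with the block for siACAT1-2 in T24 cells (1.15 ± 0.32 on the log2 scale, edgeR adjusted p = 0.0289; 1.20 ± 0.37 and 0.287 without) and for the mean of the 4 comparisons (0.65 ± 0.20, adjusted p = 0.0416; 0.64 ± 0.23 and 0.327 without). Of its exon bases, 51.6% are shared on the same strand with RP11-290H9.2, so its counts are uncertain.

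Of the collagen receptor chains only ITGA2 was at or over 1 RPKM in every library. With siACAT1-1 in UM-UC-3 cells it stood at 3.64, 3.43 and 2.09 RPKM against 1.39, 2.57 and 1.01 with siNC and 1.39, 1.99 and 1.09 with siACAT1-2. T24 libraries ranged over 1.59, 1.77 and 2.22 with siNC, 2.20, 2.35 and 2.80 with siACAT1-1, and 1.92, 1.58 and 3.35 with siACAT1-2. The knockdown groups overlapped siNC in both lines, although siACAT1-1 was higher than siNC of the same number in all 6 pairs. The blocked fit called ITGA2 for the UM-UC-3 siACAT1-1 libraries (0.94 ± 0.17, edgeR adjusted p = 0.00512; 0.87 ± 0.35 and adjusted p = 0.911 without the block) and for the mean (adjusted p = 0.0223; 0.598 without).

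Of 7 leukocyte chains 5 were tested, and 0 were called in the siRNA comparisons without the block. With it, ITGAE and ITGB2 were called lower for the mean of the 4 comparisons, and ITGAM, ITGAX and ITGB7 were not called. ITGAE, the αE chain that binds E-cadherin, was at 3.74, 4.58 and 3.10 RPKM with siNC in UM-UC-3 cells, 3.57, 4.03 and 2.89 with siACAT1-1, and 3.43, 3.75 and 2.66 with siACAT1-2. The T24 libraries had 2.47, 2.47 and 2.91 with siNC, 2.34, 1.76 and 2.18 with siACAT1-1, and 2.34, 2.03 and 2.25 with siACAT1-2. It was lower than siNC of the same number in 12 of 12 pairs, by -0.49 to -0.07 on the log2 scale, although the UM-UC-3 groups overlapped. The mean over the 4 comparisons was -0.23 ± 0.13 (edgeR adjusted p = 0.554, 0.0376 with the block). ITGAE shares 6.41% of its exon bases with GSG2 on the other strand.

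ITGB2, the β chain of the leukocyte integrins, was under 1 RPKM throughout. In UM-UC-3 cells it stood at 0.964, 0.688 and 0.719 with siNC, 0.672, 0.671 and 0.232 with siACAT1-1, and 0.582, 0.339 and 0.330 with siACAT1-2. The knockdown libraries of UM-UC-3 cells lay below those with siNC. In T24 cells ITGB2 stood at 0.231, 0.115 and 0.115 with siNC, 0.0761, 0.0781 and 0.0936 with siACAT1-1, and 0.0709, 0.0366 and 0.148 with siACAT1-2, which overlapped. The mean was -0.83 ± 0.28 (edgeR adjusted p = 0.288, 0.0131 with the block). ITGB2 shares 4.46% of its exon bases with ITGB2-AS1 on the other strand, which had a mean of 50.5 counts a library against 69.0.

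In the comparisons with siNC, the edgeR fit of all 18 libraries with the low-count filter called laminin genes only with the block. All of those called were higher with the ACAT1 siRNAs. For the mean of the 4 comparisons LAMA1, LAMB1, LAMB3 and LAMC1 were among these, at log2 values of 0.62 ± 0.11, 0.30 ± 0.07, 0.48 ± 0.11 and 0.21 ± 0.06 in the blocked edgeR fit (adjusted p = 0.00076, 0.00944, 0.00739 and 0.0273). Without the block the adjusted p of these genes ran from 0.315 to 0.789. LAMA5 and LAMB2 were not called, with means of 0.04 ± 0.17 and -0.06 ± 0.15 without the block.

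LAMB3 (chr1:209614870-209652466, minus strand, 24 merged exon blocks), the β3 chain of laminin-332, was the most abundant laminin gene of T24 cells and varied widely between replicate numbers. In UM-UC-3 cells it stood at 18.7, 13.5 and 24.6 RPKM with siNC, 26.2, 21.5 and 46.3 with siACAT1-1, and 17.8, 18.8 and 35.1 with siACAT1-2. The T24 libraries reached 97.9, 641 and 141 RPKM with siNC, 169, 534 and 268 with siACAT1-1, and 192, 554 and 252 with siACAT1-2. The number 2 library of T24 cells was the highest in each group, at 5.36, 2.44 and 2.49 times the mean of the other libraries of its group. Against siNC of the same number LAMB3 rose in numbers 1 and 3 and was lower in number 2 with both siRNAs. LAMB1 and LAMA5 were lower in number 2 of T24 cells, at 0.547 to 0.744 and 0.563 to 0.654 times the mean of the others. Without the UM-UC-3 number 3 and T24 number 2 libraries the mean of LAMB3 over the 4 comparisons was 0.63 and was called in the fit without a block as well (edgeR adjusted p = 0.0324, against 0.789 with all libraries).

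**Figure D4:**
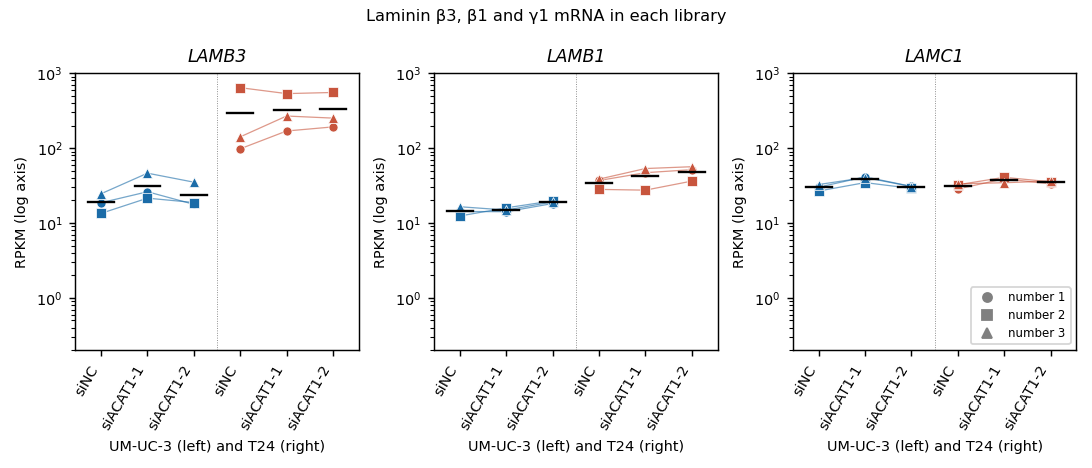
RPKM of LAMB3, LAMB1 and LAMC1 (1 common log axis) in each library of UM-UC-3 (blue, left) and T24 (red, right); lines join libraries with the same replicate number and black bars are means of 3. The T24 number 2 libraries (squares) are the highest for LAMB3 and the lowest for LAMB1.

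The chains of laminin-511 were called in single comparisons only with the block, or not at all. LAMB1, the β1 chain, was at 14.3, 12.4 and 16.5 RPKM with siNC in UM-UC-3 cells, 14.2, 16.0 and 14.9 with siACAT1-1, and 18.2, 19.8 and 19.1 with siACAT1-2, and in T24 cells at 37.0, 28.1 and 38.6, then 47.0, 27.5 and 53.4, then 51.6, 36.3 and 56.5. The siACAT1-2 libraries of UM-UC-3 cells lay above siNC, and those of T24 cells overlapped it. LAMB1 was called with the block for siACAT1-2 in T24 cells (0.48 ± 0.11, edgeR adjusted p = 0.0118, 0.597 without). LAMC1, the γ1 chain, was at 30.2, 26.8 and 32.7 RPKM with siNC in UM-UC-3 cells, 41.3, 34.7 and 40.5 with siACAT1-1, and 30.9, 29.0 and 30.7 with siACAT1-2. Its siACAT1-1 libraries lay above siNC, with a call only in the blocked fit (0.38 ± 0.10, adjusted p = 0.0389, 0.876 without). In T24 cells LAMC1 was at 28.5, 32.4 and 33.4 with siNC, 38.9, 40.8 and 34.5 with siACAT1-1, and 33.4, 35.5 and 36.3 with siACAT1-2, and was not called. LAMA5, the α5 chain, was at 3.68, 3.92 and 3.30 RPKM in the UM-UC-3 siNC libraries and 11.3, 9.22 and 16.9 in those of T24, and its knockdown libraries, at 3.39 to 4.42 and 7.47 to 16.8, overlapped siNC in both lines.

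LAMA1, the α1 chain, was at 1.12, 1.15 and 0.940 RPKM with siNC in UM-UC-3 cells, 1.80, 1.49 and 2.22 with siACAT1-1, and 0.971, 1.14 and 1.34 with siACAT1-2. T24 values were lower, at 0.298, 0.566 and 0.171 with siNC, 0.591, 0.909 and 0.381 with siACAT1-1, and 0.442, 0.810 and 0.407 with siACAT1-2. Only the UM-UC-3 siACAT1-1 libraries lay clear of siNC. Within each number all 6 T24 pairs were higher than siNC although the groups overlapped. LAMA1 was called with the block in UM-UC-3 cells for siACAT1-1 (0.76 ± 0.16, edgeR adjusted p = 0.0157, 0.933 without) and in T24 cells for both siRNAs (0.92 ± 0.18 and 0.77 ± 0.18, adjusted p = 0.00193 and 0.00975, 0.347 and 0.64 without). It shares 10.3% of its exon bases with RP11-781P6.1 on the other strand.

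The knockdown effect was not shown to differ between the lines for any member. The contrast of the mean effect in UM-UC-3 minus that in T24 called 0 of 31 members without the block (4 with a raw p under 0.05, 0 by DESeq2), where 0% of all genes were called, and 0 with it (8 at an unadjusted p), where 0.104% were. The contrast of siACAT1-2 against siACAT1-1 over both lines called 0 members without the block (4 with a raw p under 0.05, 2 by DESeq2), where 2.56% of all genes were called. With the block it called 8, where 20.6% of all genes were called. Among these, ITGA2, ITGB1, LAMA1 and LAMC1 were lower with siACAT1-2, at log2 values of -0.62 ± 0.12, -0.27 ± 0.07, -0.43 ± 0.12 and -0.25 ± 0.07 (edgeR adjusted p between 0.000984 and 0.0123), and ITGB3, ITGB5 and LAMB1 were higher, at 0.65 ± 0.23, 0.28 ± 0.09 and 0.26 ± 0.08 (p between 0.0296 and 0.0485). ITGA5 differed by 0.14 ± 0.14 between the siRNAs and was not called (adjusted p = 0.679, 0.403 with the block). ACAT1 itself was 0.62 ± 0.15 lower on the log2 scale with siACAT1-2 (adjusted p = 0.034).

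The larger contrast was that between the lines. In siNC libraries 19 of 31 members were called between UM-UC-3 and T24, where 44.3% of all genes were called, with 7 higher and 12 lower in UM-UC-3 cells (20 by DESeq2). Among those lower in UM-UC-3 cells were 3 of 4 laminin receptor genes (ITGA6, ITGA7 and ITGB4), 3 of 5 laminin α genes (LAMA3, LAMA4 and LAMA5) and 2 of 3 tested laminin β genes (LAMB1 and LAMB3). Higher in UM-UC-3 cells were ITGB1, ITGB5, ITGA4, ITGA11, LAMA1, ITGB2 and ITGAE. Of the 19, ITGA4 passed the low-count filter in UM-UC-3 cells only, and ITGA9, ITGB4, ITGB8 and LAMA3 in T24 cells only. These genes entered the test through the line where they were higher, so their calls are not separate support for a difference. ITGB4 and LAMA3 count in the laminin receptor and laminin α tallies above. The members' median was -0.11 with and without the bounds for low counts, and that of all genes 0.03. Over all 9 libraries of a line, 11 members lay entirely lower in UM-UC-3 cells (among them ITGA1, ITGA6, ITGA7, ITGB4, ITGB8, LAMA3, LAMA4, LAMA5, LAMB1 and LAMB3) and 3 entirely higher (ITGB1, ITGB2 and LAMA1). The share of all genes that lay apart in this way is not given. These 2 counts therefore cannot be judged as a result about the members.

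The α3 and β3 chain genes of laminin-332 were lower in UM-UC-3 cells. LAMB3 differed by -3.88 ± 0.64 on the log2 scale (edgeR adjusted p = 0.00012), where leaving out the T24 siNC library 2 gave -2.68. LAMA3, the α3 chain, stood at 0, 0 and 0.00479 RPKM in UM-UC-3 siNC libraries and 0.430, 0.399 and 0.496 in those of T24, from 2 and 540 summed counts. That is a ratio of 272 with an exact 95% counting interval of 74.8 to 2249. The knockdown libraries of UM-UC-3 had 0 to 0.0265 RPKM of LAMA3, those of T24 0.223 to 0.612. LAMA3 was low beside LAMB3, since the RPKM of LAMB3 was 228, 1608 and 285 times that of LAMA3 in the T24 siNC libraries. LAMA3 is counted over 13522 exon bases of all its transcripts, long and short, so the level of a short transcript is understated.

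The windows of LAMB3 (chr1:209652416-209652675, minus strand) and LAMA3 (chr18:23872770-23873029, plus strand) are shown because both genes were lower in UM-UC-3 cells, with the same source, length and capitals as above.
LAMB3: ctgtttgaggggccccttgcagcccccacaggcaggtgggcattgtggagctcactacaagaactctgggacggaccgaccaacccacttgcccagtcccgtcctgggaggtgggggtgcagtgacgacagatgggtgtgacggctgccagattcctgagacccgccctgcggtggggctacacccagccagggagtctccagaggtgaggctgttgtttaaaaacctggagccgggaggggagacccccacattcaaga
LAMA3: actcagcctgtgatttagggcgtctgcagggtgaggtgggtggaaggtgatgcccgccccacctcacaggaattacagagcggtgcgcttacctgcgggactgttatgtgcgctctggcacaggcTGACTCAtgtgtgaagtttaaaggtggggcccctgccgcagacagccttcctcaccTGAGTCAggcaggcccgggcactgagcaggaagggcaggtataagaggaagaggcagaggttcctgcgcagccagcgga
TGANTCA occurred at -125 and -69 in LAMA3 and not in the window of LAMB3, and GGAATG was in neither. GGGCGG was found once in each, and CACGTG in neither. RefSeq lists 3 windows for LAMB3, of which the one nearest the gene model's 5′ end is shown, 41 bases away. The LAMA3 window lies 183577 bases inside the gene model, at the start of a shorter transcript. No match says only that these letters are not in this window.

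The hemidesmosomal receptor followed the same order at very low levels. ITGB4 stood at 0 RPKM in all 3 UM-UC-3 siNC libraries and 0.0645, 0.121 and 0.269 in those of T24, from 0 and 89 summed counts, which makes it at least 29.9-fold higher in T24 cells against a floor of 3 counts over the group. Its partner ITGA6 stood at 11.1, 9.86 and 7.15 RPKM in UM-UC-3 and 25.8, 17.3 and 25.7 in T24 siNC libraries, a log2 difference of -1.25 ± 0.28 (edgeR adjusted p = 0.00187). The UM-UC-3 knockdown libraries had 0 to 0.0145 RPKM of ITGB4, those of T24 0.0820 to 0.209, so it remained under 1 RPKM in both.

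Other receptors that separated the lines were also under 1 RPKM. ITGB8, the β chain of the αVβ8 receptor that binds latent TGF-β, stood at 0 in all UM-UC-3 siNC libraries and 0.105, 0.0141 and 0.167 RPKM in those of T24, at least 44.3-fold higher against the same floor. ITGA1, the α1 collagen receptor chain, stood at 0.0115, 0.0101 and 0.0384 RPKM in UM-UC-3 and 0.279, 0.241 and 0.319 in T24 siNC libraries, a log2 difference of -3.75 ± 0.40 (edgeR adjusted p = 1.16e-06), or -4.62 without the UM-UC-3 siNC library 3. ITGA9 stood at 0, 0.00377 and 0 RPKM in UM-UC-3 and 0.0562, 0.0257 and 0.103 in T24, a ratio of 46.3 with an interval of 7.90 to 1867. ITGA9 shares 6.46% of its exon bases with ITGA9-AS1 on the other strand, which had a mean of 15.7 counts a library against 5.06, so its counts are uncertain. ITGA4, the α4 chain that binds VCAM1 and fibronectin, went the other way, at 0.0269, 0.0868 and 0.0492 RPKM in UM-UC-3 and 0, 0.00898 and 0 in T24 siNC libraries, a ratio of 19.9 with an interval of 5.15 to 170. These ratios rest on 40 to 46 counts in the higher group and 1 or 2 in the lower.

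Among the chains expressed in every library, ITGB1 was higher in UM-UC-3 cells by 1.16 ± 0.13 on the log2 scale (edgeR adjusted p = 2.36e-06) and ITGB5 by 1.32 ± 0.21 (adjusted p = 9.57e-05). LAMA5 was lower by -1.73 ± 0.29 and LAMB1 by -1.23 ± 0.24. ITGA3 (-0.41 ± 0.20, adjusted p = 0.117), ITGA5 (-0.11 ± 0.20, adjusted p = 0.686), ITGAV (0.08 ± 0.19, adjusted p = 0.769) and LAMC1 (-0.03 ± 0.12, adjusted p = 0.873) were not called. Of these, ITGAV stood at 3.16, 3.55 and 2.58 RPKM in UM-UC-3 siNC libraries and 2.91, 2.98 and 3.22 in those of T24, and all 18 of its libraries lay between 2.40 and 4.23. ITGA3 was called lower in UM-UC-3 cells without the UM-UC-3 siNC library 3 (-0.58, adjusted p = 0.0484) or the T24 siNC library 2 (-0.65, adjusted p = 0.0125). ITGAE, at 0.59 ± 0.21 (adjusted p = 0.0299), lost its call without any 1 of 7 libraries (UM-UC-3 siNC 1 and 2, T24 siNC 1, 2 and 3, UM-UC-3 siACAT1-1 1, T24 siACAT1-2 3), with p up to 0.153.

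The chain make-up of the lines differed among the laminin α and β genes. LAMB3 was 34% ± 1.88 of the summed β genes in UM-UC-3 siNC libraries and 72.6% ± 16.2 in those of T24. LAMA5 was 75.8% ± 0.836 and 91.9% ± 2.68 of the α genes, with LAMA1 at 22.3% ± 0.872 and 2.95% ± 2.31. In the UM-UC-3 siACAT1-1 libraries LAMA1 was 31.0% ± 4.04 of the α genes and LAMB3 47.4% ± 7.41 of the β genes, while with siACAT1-2 they were 21.1% ± 3.03 and 34.7% ± 7.21.

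**Figure D5:**
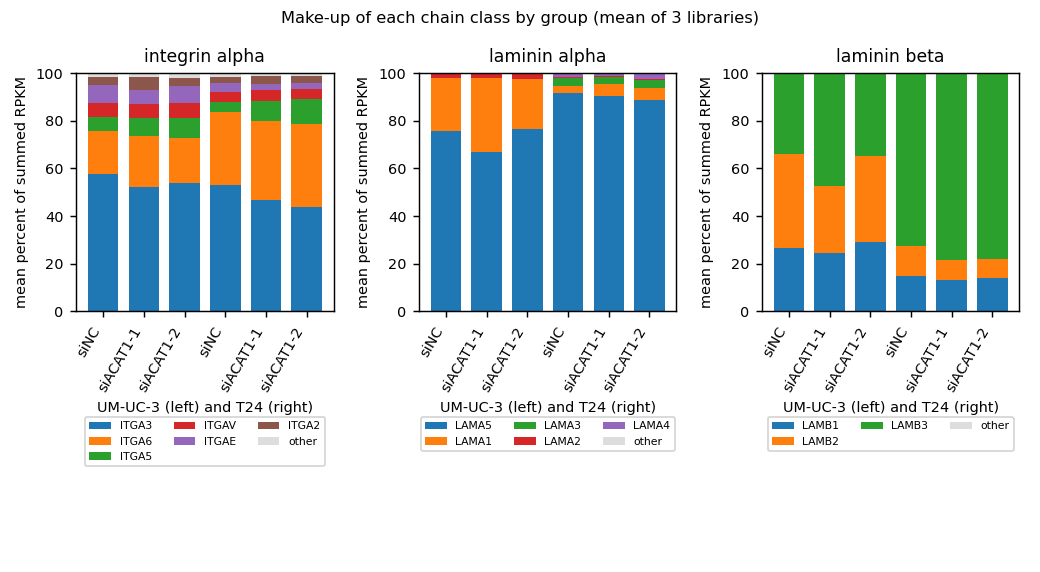
Mean percent of the summed RPKM of a chain class held by each gene in each group (3 libraries), for UM-UC-3 (left 3 bars) and T24 (right 3 bars). LAMA1 holds 22.3% of the laminin α class in UM-UC-3 siNC libraries and 2.95% in those of T24.

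The other genes of adhesion were read from a list of 57 adaptors, basement membrane proteins, hemidesmosome and tetraspanin partners and other ligands, of which 52 were tested. For the mean of the 4 comparisons 0 were called without the block, and with it 4 were higher and 6 lower, where 0.223% and 12.4% of all genes were called. In single siRNA comparisons without the block, SPP1, which encodes the ligand osteopontin, was called in T24 cells with siACAT1-1 (1.99 ± 0.31, edgeR adjusted p = 0.0213). It stood at 1.08, 1.47 and 0.953 RPKM with siNC, 7.0, 3.46 and 3.22 with siACAT1-1, and 2.68, 2.75 and 1.71 with siACAT1-2, and all the knockdown libraries lay above siNC. FN1, the fibronectin bound by α5β1, had log2 values of -0.86 ± 0.33 with siACAT1-1 and 0.88 ± 0.33 with siACAT1-2 in T24 cells, neither of them called, and was called higher with siACAT1-2 than with siACAT1-1 over both lines (0.99 ± 0.24, adjusted p = 0.0342). MFGE8, an RGD ligand, was also higher with siACAT1-2 (0.65 ± 0.15, adjusted p = 0.0279) and DST, the hemidesmosomal linker dystonin, lower (-0.62 ± 0.15, adjusted p = 0.0403). With the block, DAG1, the laminin receptor dystroglycan, and TNS2, a tensin adaptor, were called lower for the mean, by -0.53 ± 0.10 (edgeR adjusted p = 0.00183) and -0.68 ± 0.11 (adjusted p = 0.000401).

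Between the lines 31 of the 52 were called, 11 higher and 20 lower in UM-UC-3 cells, where 44.3% of all genes were called. Among the 23 tested adaptors 3 were higher and 11 lower, and among 8 basement membrane partners 1 was higher and 4 lower, while 4 of 7 hemidesmosome and tetraspanin partners were higher and 0 lower. NTN4, a netrin that binds laminin γ chains, differed by -6.53 ± 0.47 on the log2 scale, NID1, which links laminin to collagen IV, by -5.47 ± 0.44, FN1 by -4.09 ± 0.38 and the kinase gene SRC by -3.55 ± 0.25. EDIL3, an RGD ligand, was higher in UM-UC-3 cells by 5.38 ± 0.28. In these 5 genes the 3 siNC libraries of UM-UC-3 did not overlap the 3 of T24. That separation is read from the same libraries as the differences and is not separate support for them. The share of all genes separated in this way is not given.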

How the data were processed

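The assay was bulk RNA-seq of 18 libraries (2 lines, 3 siRNAs, 3 replicates). The authors made stranded libraries, ran Trimmomatic 0.36 for trimming, STAR 2.5.3 for mapping (GRCh38) and, for gene counts, featureCounts (Subread 1.5.1; per the submitters' processing notes), and deposited raw counts for 39496 genes. They also deposited RPKM values computed from these counts. The annotation release, the strand setting and the use of the molecular identifiers are not given in the sources used here, and intervals and floors cover counting error only. Column sums gave the depth, 25163490 to 34417230 counted reads per library.

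The test on counts was the quasi-likelihood test of edgeR 4.0.16 in R 4.3.3 (TMM, filterByExpr by group) with 6 group coefficients and all 18 libraries in 1 fit. Benjamini-Hochberg adjustment ran over the 20144 genes kept, and genes were called at an adjusted p under 0.05. The methods were tested on simulated data, drawn independently for each library with the same dispersion for all genes. These data held no effect of replicate number, so the test does not cover libraries that deviate together. Levels are the deposited RPKM as mean and SD. No replicate pair of the 18 was as close as counting error alone allows (chi-square/df 13.1 to 196).

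Same-numbered libraries of a line deviated from their group means together. Their r across genes (not independent replicates) was 0.239 to 0.804 in UM-UC-3 and 0.547 to 0.819 in T24. Libraries of a different number and siRNA gave -0.784 to 0.478 (median -0.206) in UM-UC-3 and -0.705 to 0.304 (median -0.546) in T24. The ranges of same and different numbers thus overlapped in UM-UC-3 cells but not in T24 cells. The pairing was taken from these values. The numbers come from the titles. A block of replicate number within line was an alternative fit. No block was used between the lines, since it lies within a line.

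Members and lists were chosen with earlier results of these data known. Values by library (for some, siNC libraries and a range) are given for members called in any siRNA contrast with or without the block, for the 8 largest called differences between the lines and for the hub genes of both families. A member that stays in the counts and medians is not reported here. Other alternatives were DESeq2 1.42.0, upper-quartile scaling, no low-count filter, 1 line at a time, each library left out, and the UM-UC-3 number 3 and T24 number 2 libraries left out. The blocked fit without those libraries was added after seeing the data.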

Additional observations from a re-analysis of the deposited data

How the results depend on the processing

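Depth limits those of the 22 members under 1 RPKM that had few counts, such as ITGA4 and ITGA9, whose ratios rest on them. Others of the 22 had more, such as LAMA3 with 540 summed counts in the T24 siNC libraries. The number of members called depended mostly on the replicate block, which gave 6, 3, 7, 11 and 8 in place of 0, 1, 2, 2 and 0 for UM-UC-3 siACAT1-1, T24 siACAT1-1, T24 siACAT1-2, the mean of the 4 comparisons and siACAT1-2 against siACAT1-1. Shares of all genes called are not given for the fits that follow, so their counts compare fits only. Without the UM-UC-3 number 3 and T24 number 2 libraries the blocked fit, chosen after seeing the data, gave 1, 6, 9, 8 and 6, and the fit without a block gave 3 for T24 siACAT1-1 and 4 for the mean. DESeq2 gave 1 for UM-UC-3 siACAT1-1, 2 for T24 siACAT1-1 and 2 between the siRNAs. No filter on low counts gave 1, 2, 1 and 5 for UM-UC-3 siACAT1-1, T24 siACAT1-1, T24 siACAT1-2 and the mean. T24 fitted alone gave 0 and 0, with fewer samples behind the estimate of the spread. Leaving out each of the 18 libraries gave 0 to 2 members for T24 siACAT1-1, 1 to 2 for T24 siACAT1-2, 0 to 2 for the mean and 18 to 21 between the lines, and 0 in the other siRNA contrasts. Upper-quartile scaling moved none of these counts by over 1.5 times. The contrast between the lines (19 members) and the difference of the effect between the lines (0) moved by no more than 1.5 times under any alternative run. Of 64 single results followed, no called value changed sign; values near 0 that were not called did so in some fits (LAMA5 in the mean, and ITGA5, ITGAV and LAMC1 between the lines). The cause of these changes was not tested.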
